A study of Brassica oleracea with 8 samples.

Results

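The shoot branching genes TCP18, REVOLUTA (2 copies), MAX1 and DWARF27 were followed through RNA sequencing counts of kale, cabbage and TO1000, 3 forms of Brassica oleracea. They were chosen by name and identifier, as genes that the study listed under apical meristem dominance, and make up 5 of the 60586 features counted. The study picked them for their expression in these same libraries, and listed them under kale, apart from genes shared by all morphotypes. Their direction, their kale calls and the lack of a call between cabbage and TO1000 are therefore not independent evidence. Of these, 4 had enough reads to be tested, and TCP18, with 23 reads in all, did not.

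The kale was a single accession of the lobed Red Winter type (3 libraries), the cabbage a single accession (2 libraries), and TO1000 a rapid cycling doubled haploid line that resembles kale (3 libraries), which also supplied the genome used for mapping. The study calls the kale var. acephala, the cabbage var. capitata and TO1000 var. alboglabra, whereas the deposited labels give var. viridis for the kale and var. sabadua for the cabbage, and the counts do not settle which names are right. All plants grew under the same conditions in 1 chamber with short days and were harvested 24 days after sowing. Each library pooled 8 plants and held the upper stem with young leaves, the shoot tip and the lateral meristems, so that differences in the share of a tissue and in the RNA per cell cannot be told apart. Since morphotype and accession are the same thing here, a difference belongs to these accessions as sampled.

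Axillary buds form in the angle between leaf and stem, and whether they grow out is set in part by hormones. Strigolactones, which are made from carotenoids and hold buds back, start with the plastid isomerase DWARF27, and the cytochrome P450 enzyme MAX1 acts later on their precursor carlactone. In Arabidopsis the TCP transcription factor TCP18, also called BRANCHED1, acts inside the bud to keep it dormant, and REVOLUTA, a homeodomain leucine zipper transcription factor, is needed for lateral meristems to form and for the upper side of leaves.

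Libraries held between 4742169 and 7539991 reads on genes in kale, 3016197 and 5726708 in cabbage, and between 5310933 and 6863962 in TO1000. Levels are given as CPM, the counts of a gene per 1000000 reads on the tested genes of its library, where those reads are first scaled by the TMM factor. A single read was worth 0.137 to 0.239 CPM in kale, 0.168 and 0.362 CPM in cabbage and 0.137 to 0.157 CPM in TO1000, and 3 reads over a whole group, taken as the limit that a count of 0 allows, were worth 0.176, 0.344 and 0.147 CPM in kale, cabbage and TO1000. These limits and the counting intervals below cover counting error only, because the cDNA was amplified by PCR without molecular identifiers and its reads need not be separate molecules. A fold given as a lower bound sets the pooled kale reads against such a limit. It leaves out the counting error and the spread of the kale reads themselves. Gene lengths are not in the files, so the level of one gene is not compared with that of another.

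Both strigolactone enzymes were counted in all 8 libraries, with DWARF27 higher and MAX1 lower in kale, whereas the 3 transcription factor genes were counted in every kale library and hardly anywhere else. Together the transcription factor genes had 181 reads in kale, 0 in cabbage and 3 in TO1000. These counts speak for the listed identifiers only, since the study listed copies that differed in expression. Further copies of REVOLUTA or TCP18 were not looked for, so the genes as such cannot be called silent outside kale. Reads were placed on the TO1000 genome, and the effect of sequence differences in kale and cabbage on the counts was not tested. The split by role did not extend to the calls, since DWARF27 and both REVOLUTA copies were called higher in kale and the other enzyme, MAX1, lower. Gene by gene, the transcription factors had between 4 and 70 reads in each kale library, were at 0 in 6 of 6 gene and library pairs of cabbage and in 7 of 9 of TO1000, while no enzyme was at 0 in any library.

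**Figure D1:**
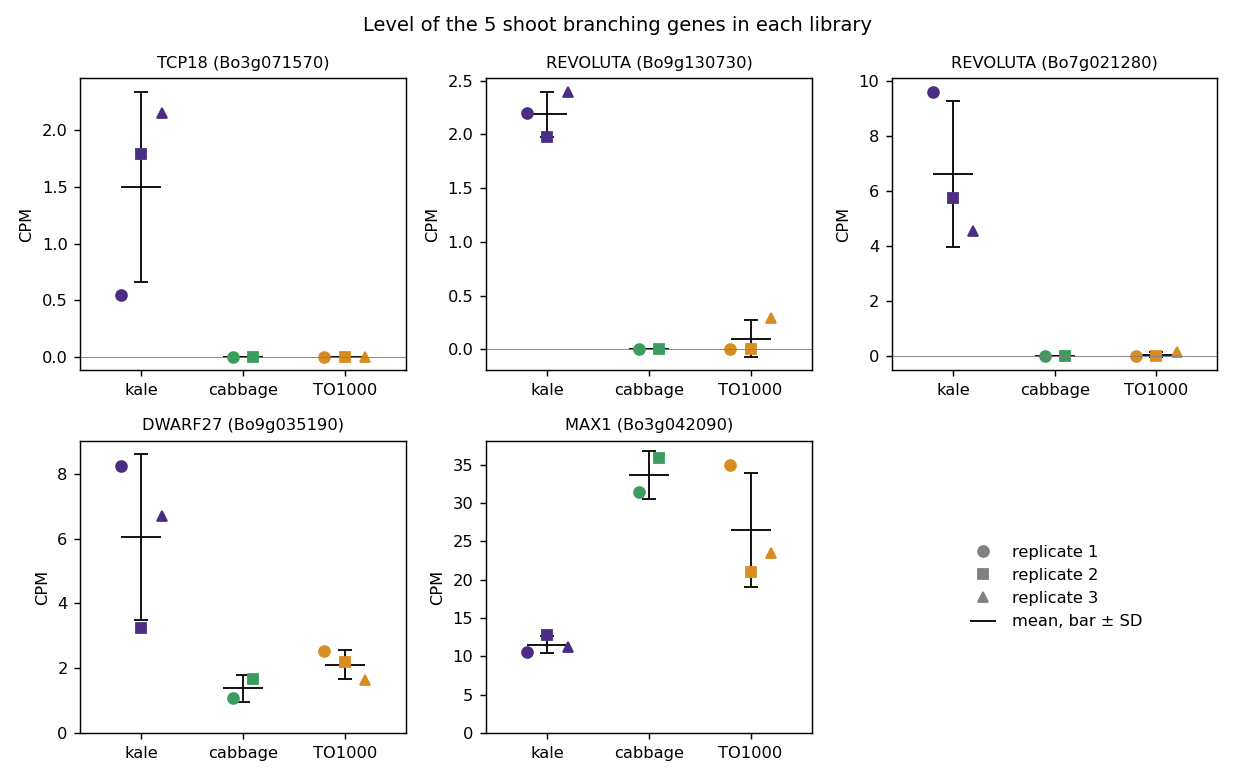
Level of the 5 genes in CPM (vertical axes, each with its own scale) in every library of kale, cabbage and TO1000, with symbols for the replicates, a line for the group mean and bars for ± 1 SD. The 3 transcription factor genes in the upper panels sit at or near 0 outside kale, DWARF27 is highest in kale with 3.23 to 8.25 CPM, and MAX1 is lowest in kale with 10.6 to 12.7 CPM.

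In the comparison of kale with TO1000, 4 of the 4 tested members were called, 3 higher and 1 lower, where a call needed a Benjamini-Hochberg adjusted p under 0.05 by edgeR and a change of more than 2-fold. The background is high, since 27.7% of all 28126 tested genes were called in that comparison. Between kale and cabbage the same count was 4 of 4, again 3 higher and 1 lower, against 25.7% of all genes. Between cabbage and TO1000 0 of the 4 members were called, by edgeR or by DESeq2, against 26.2% of all genes, and none had an unadjusted edgeR p under 0.05 (the smallest was 0.126). Both REVOLUTA copies passed the count filter only through their kale reads. With 0 reads in cabbage and 1 or 2 in TO1000 they could not have been called there, so only DWARF27 and MAX1 could. Being higher in kale in both comparisons was shared by both REVOLUTA copies and DWARF27 and by 6.56% of all genes, being lower in both by MAX1 and by 4.81%. All 4 were called in the same direction in both kale comparisons without a call between cabbage and TO1000, a pattern of 9.25% of all genes. The study had sorted these genes on the same libraries, so the pattern follows from that choice. The shares over all genes are given as background only. The median log2 fold change of the 4 was 2.86 for kale minus TO1000 and 4.36 for kale minus cabbage, the second being 2.35 with the REVOLUTA copies, at 0 in cabbage, set to their lower bounds, while the medians over all tested genes were -0.00276 and 0.06. No median is given for cabbage minus TO1000, where the REVOLUTA copies had 0 reads against 1 or 2. The 3 kale libraries enter both kale comparisons, whose values therefore stand side by side and are not independent of each other.

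DWARF27 (Bo9g035190), which opens the strigolactone pathway by turning the bond geometry of beta-carotene, had 60, 18 and 28 reads in kale replicates 1 to 3, or 8.25, 3.23 and 6.70 CPM. Cabbage had 3 and 10 reads (1.09 and 1.68 CPM), and TO1000 had 16, 16 and 11 reads (2.52, 2.19 and 1.62 CPM). Every kale library lay above every other library, though kale replicate 2 came close to TO1000 replicate 1, and the cabbage and TO1000 ranges overlapped. The mean and SD were 6.06 ± 2.57 CPM over the 3 kale libraries, 1.38 ± 0.417 CPM over the 2 cabbage libraries and 2.11 ± 0.453 CPM over the 3 TO1000 libraries. DWARF27 was 2.88-fold higher in kale than in TO1000 (95% interval 1.63 to 5.07, edgeR Benjamini-Hochberg adjusted p = 0.00525) and 4.13-fold higher than in cabbage (95% interval 1.95 to 8.74, adjusted p = 0.0048). Cabbage and TO1000 were not told apart (log2 fold change -0.52, 95% interval -1.69 to 0.65, edgeR Benjamini-Hochberg adjusted p = 0.477), an interval that still holds a change of 2-fold in the direction of TO1000. The kale libraries disagreed more than counting predicts, as their coefficient of variation was 42.4% where reads of that number alone give 16.8%, and the highest was 2.56 times the lowest. Tested against a change of 2-fold itself rather than against no change, DWARF27 missed the threshold in both kale comparisons (glmTreat in edgeR, adjusted p = 0.166 for TO1000 and 0.0598 for cabbage).

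MAX1 (Bo3g042090), also named CYP711A1, was the member with the most reads and the only one lower in kale. It had 77, 71 and 47 reads in kale, 87 and 214 in cabbage, and 222, 154 and 159 in TO1000. Scaled to the libraries these were 10.6, 12.7 and 11.2 CPM in kale, 31.5 and 35.9 CPM in cabbage, and 34.9, 21.0 and 23.5 CPM in TO1000. No kale library reached the lowest of the others, TO1000 replicate 2, and the cabbage libraries lay within or just above the TO1000 range. With their SD, the group means were 11.5 ± 1.10 CPM for kale (n = 3), 33.7 ± 3.09 CPM for cabbage (n = 2) and 26.5 ± 7.43 CPM for TO1000 (n = 3). The log2 fold change was -1.20 for kale minus TO1000 (95% interval -1.64 to -0.75, edgeR Benjamini-Hochberg adjusted p = 0.000328) and -1.56 for kale minus cabbage (95% interval -2.05 to -1.06, adjusted p = 7.62e-05), so kale held 0.436 times the level of TO1000 and 0.340 times that of cabbage. MAX1 spread little among kale libraries (coefficient of variation 9.55%, 12.4% from counting alone) and among cabbage libraries (9.18%, 8.15% from counting), and more among TO1000 libraries (28.1%, 7.49% from counting), where replicate 1 stood above the others. Without TO1000 replicate 1 the log2 fold change for kale minus TO1000 was -0.95 (edgeR Benjamini-Hochberg adjusted p = 0.00153), short of a 2-fold change, and the difference was not called by glmTreat with all libraries either (adjusted p = 0.299). Cabbage minus TO1000 gave a log2 fold change of 0.36 (95% interval -0.11 to 0.83, edgeR Benjamini-Hochberg adjusted p = 0.213), which was 0.61 without TO1000 replicate 1 (adjusted p = 0.0293), still under the fold threshold.

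Setting the 2 enzymes against each other within a library removes the library's depth from the comparison. For every 100 MAX1 reads there were 77.9, 25.4 and 59.6 DWARF27 reads in kale, 3.45 and 4.67 in cabbage, and 7.21, 10.4 and 6.92 in TO1000. The 3 morphotypes did not overlap in this ratio, with kale highest, TO1000 next and cabbage lowest, and kale replicate 2 was the kale library nearest to the others. The order of cabbage and TO1000 rests on 3 and 10 DWARF27 reads in cabbage and has no counting interval. Neither enzyme was called between cabbage and TO1000. On the log2 scale, with a pseudocount of 0.5 reads, the mean and SD of the ratio were -1.01 ± 0.832 for kale (n = 3), -4.50 ± 0.206 for cabbage (n = 2) and -3.59 ± 0.316 for TO1000 (n = 3). Kale was thus 5.96-fold above TO1000 and 11.2-fold above cabbage, and cabbage minus TO1000 was -0.91. The ratio joins 2 genes whose opposite differences were known beforehand, so it is given as a description without a test, and its absolute value depends on gene lengths that are not known here.

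**Figure D2:**
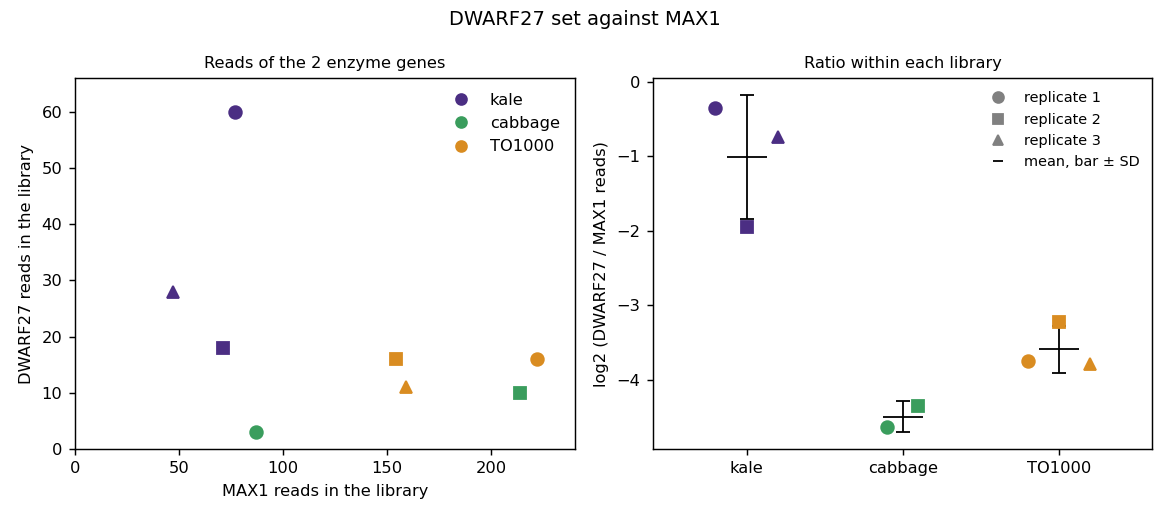
Left, reads of DWARF27 (vertical axis) against reads of MAX1 (horizontal axis), 1 point per library; right, log2 of their ratio in each library by morphotype, with the mean as a line and bars for ± 1 SD. Kale libraries lie between -1.95 and -0.36 on the right, cabbage libraries between -4.64 and -4.35 and TO1000 libraries between -3.79 and -3.23.

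TCP18 (Bo3g071570), the bud dormancy regulator, was counted in kale only. It had 4, 10 and 9 reads in kale, or 0.550, 1.79 and 2.15 CPM, and 0 in both cabbage and all 3 TO1000 libraries. Kale replicate 1, the most deeply sequenced library of the series, held the fewest TCP18 reads, and the highest kale level was 3.91 times the lowest. With a mean of 1.498 ± 0.841 CPM (SD, n = 3), kale was at least 9.21-fold higher than TO1000 and at least 3.93-fold higher than cabbage, with 3 reads over the group as the floor. These bounds take the few kale reads as given, without their counting error or the spread among kale libraries. They also lean on depth, and leaving out cabbage replicate 2 lowered the bound over cabbage to 1.24. Leaving out TO1000 replicate 2 lowered the bound over TO1000 to 5.87. At the size of the smallest library, kale would have given 1.60, 4.68 and 5.72 TCP18 reads, so that a level like that of kale replicate 1 could go undetected in cabbage replicate 1. The spread among kale libraries (coefficient of variation 56.1%) was above the 36.1% that counting gives. Since the fit left TCP18 out for its few reads, its test comes from other settings: an unfiltered fit called it in both kale comparisons (edgeR Benjamini-Hochberg adjusted p = 0.00031 for TO1000 and 0.0124 for cabbage). A filter with a minimum of 5 reads, chosen after its counts were seen, also called both (adjusted p = 0.00345 and 0.0216). Without cabbage replicate 1 or 2, TCP18 entered the fit and was called against TO1000 (edgeR Benjamini-Hochberg adjusted p = 0.00713 and 0.00764) but not against cabbage (adjusted p = 0.075 and 0.164). The fitted log2 fold changes against cabbage were then 6.19 and 6.08, against 6.07 in the unfiltered fit, and the lone cabbage library was assumed to vary like the other groups. A silent count of this kind was not particular to TCP18: 127 of the 60586 features, 0.21%, had 0 reads in all 5 cabbage and TO1000 libraries and at least 4 in every kale library. The share depends on that cut, which is the lowest TCP18 count in kale. It also depends on the base, of which 28126 features passed the count filter.

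The REVOLUTA copy Bo7g021280 had 70, 32 and 19 reads in kale, or 9.62, 5.74 and 4.54 CPM, 0 in both cabbage libraries, and 0, 0 and 1 in TO1000. All kale libraries stood far above the rest, with kale replicate 1 highest. Kale averaged 6.64 ± 2.66 CPM (SD, n = 3), and its level was 145 times that of TO1000 (95% counting interval 25.6 to 5786) and at least 20.7-fold higher than that of cabbage. Kale minus TO1000 had an adjusted p of 4.69e-06 and kale minus cabbage of 5.92e-05 (edgeR, Benjamini-Hochberg). The fitted log2 fold changes, 6.59 and 8.29, depend on a prior count where a group is at or near 0, and without TO1000 replicate 3, which held its single read, that for TO1000 was 8.25.

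The second copy, Bo9g130730, had 16, 11 and 10 reads in kale (2.20, 1.97 and 2.39 CPM), 0 in both cabbage libraries, and 0, 0 and 2 in TO1000, the last at 0.295 CPM. Its kale libraries lay close together and clear of the others, at 2.19 ± 0.209 CPM (SD, n = 3), a coefficient of variation of 9.57% where counting alone gives 28.5%. Kale was 22.2 times TO1000 (95% counting interval 5.73 to 190.2) and at least 6.32-fold higher than cabbage. The adjusted p values by edgeR with Benjamini-Hochberg adjustment were 0.00138 for kale minus TO1000 and 0.0038 for kale minus cabbage. The call against cabbage rested on cabbage replicate 2, the deeper of the pair, and was lost without it, with the log2 fold change at 6.66 and cabbage down to 1 library (adjusted p = 0.0725), while without TO1000 replicate 3 the fitted log2 fold change for kale minus TO1000 was 6.63 in place of 4.20. For both copies cabbage minus TO1000 compared 0 reads with 1 or 2, and the edgeR intervals of the log2 fold change, -6.13 to 2.72 for Bo7g021280 and -7.30 to 2.37 for Bo9g130730, say little about that difference.

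**Figure D3:**
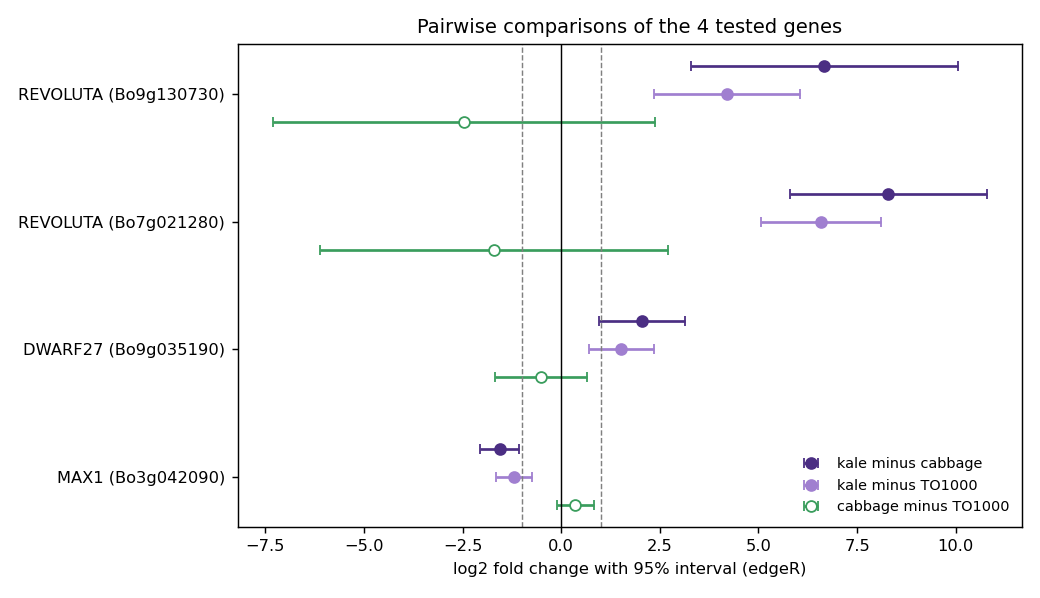
Log2 fold changes with 95% intervals from edgeR (horizontal axis) for the 4 tested genes, with kale minus cabbage, kale minus TO1000 and cabbage minus TO1000 drawn separately and filled symbols for called differences. Dashed lines mark a change of 2-fold. All kale comparisons are filled, with MAX1 the gene on the negative side, the cabbage minus TO1000 intervals all include 0, and the REVOLUTA values depend on a prior count because cabbage had 0 reads and TO1000 1 or 2.

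The split of reads between the REVOLUTA copies could be followed in kale, where both were counted. Of the reads on both copies, Bo7g021280 took 81.4% in kale replicate 1 (exact Clopper-Pearson 95% interval 71.6 to 89.0, 86 reads), 74.4% in replicate 2 (58.8 to 86.5, 43 reads) and 65.5% in replicate 3 (45.7 to 82.1, 29 reads). These intervals overlap and cover counting error only, and a difference between the libraries was not tested. Pooled over kale the share was 76.6% (69.2 to 82.9, 158 reads), which counts reads and is not a comparison of levels, since a longer transcript gives more of them. STAR counts reads with a single best place in the genome, and sequence that the copies share would be missing from both.

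The 3 reads of the transcription factor genes outside kale all came from TO1000 replicate 3. The source of the 3 reads was not tested. The study did not treat the RNA with DNase, and the strand of the counts is not given in the sources used here, so reads from an antisense or overlapping transcript could not be separated.

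The other genes under the same heading of the study are 3 copies of AXR1, part of the enzyme that activates the ubiquitin-like protein RUB in auxin signalling, and PID, a kinase that steers the auxin exporters of the PIN family. They too were chosen on these libraries. All 4 passed the count filter, and 3 were higher and 1 lower in kale than in TO1000, 3 higher and 1 lower in kale than in cabbage, and 1 higher and 1 lower in cabbage than in TO1000. These counts stand against 27.7%, 25.7% and 26.2% of all genes called. The median log2 fold change was 3.02 for kale minus TO1000 and 4.56 for kale minus cabbage, or 3.49 with the copy at 0 in cabbage set to its lower bound. Without cabbage replicate 2, when the lone cabbage library was assumed to vary like the other groups, AXR1 Bo8g115290 (6.12 on the log2 scale, adjusted p = 0.0719) and PID (-0.81, adjusted p = 0.171) were not called by edgeR between kale and cabbage. AXR1 Bo8g115290 was not called without cabbage replicate 1 either (3.00, adjusted p = 0.0529).

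The AXR1 copies Bo8g102450 and Bo8g052710 were counted mostly in kale, like the transcription factors. Bo8g102450 had 67, 30 and 22 reads in kale, 0 and 1 in cabbage and 0 in every TO1000 library. Bo8g052710 had 38, 21 and 7 reads in kale, 0 in both cabbage libraries and 0, 3 and 2 in TO1000. Both had their highest level in kale replicate 1 and the lowest kale level in replicate 3, as REVOLUTA Bo7g021280 did. The copy Bo8g115290 went the other way, with 14, 10 and 2 reads in kale (1.40 ± 0.800 CPM, SD, n = 3), 0 and 1 in cabbage, and 81, 54 and 55 in TO1000 (9.41 ± 2.91 CPM, SD, n = 3). Its log2 fold change was -2.64 for kale minus TO1000 (SE 0.40, edgeR Benjamini-Hochberg adjusted p = 8.6e-05), and it was 13.3 times higher in kale than in cabbage (95% counting interval 2.19 to 546, adjusted p = 0.0124). Cabbage held 1 read of this copy and TO1000 190, so that TO1000 was 81.1 times cabbage (95% counting interval 14.4 to 3220.1, edgeR Benjamini-Hochberg adjusted p = 1.56e-05). PID differed again, with 8.11, 4.84 and 7.41 CPM in kale, 11.9 and 20.6 CPM in cabbage and 1.89, 1.09 and 1.33 CPM in TO1000, without overlap between the morphotypes. Its log2 fold changes were 2.24 for kale minus TO1000, -1.29 for kale minus cabbage and 3.53 for cabbage minus TO1000 (edgeR Benjamini-Hochberg adjusted p = 0.000118, 0.00341 and 1.31e-06). Of the members and these 4 genes, PID and AXR1 Bo8g115290 were the ones called in all 3 comparisons. The study had already listed them, from the same libraries, as the genes of this heading shared by all morphotypes.

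**Figure D4:**
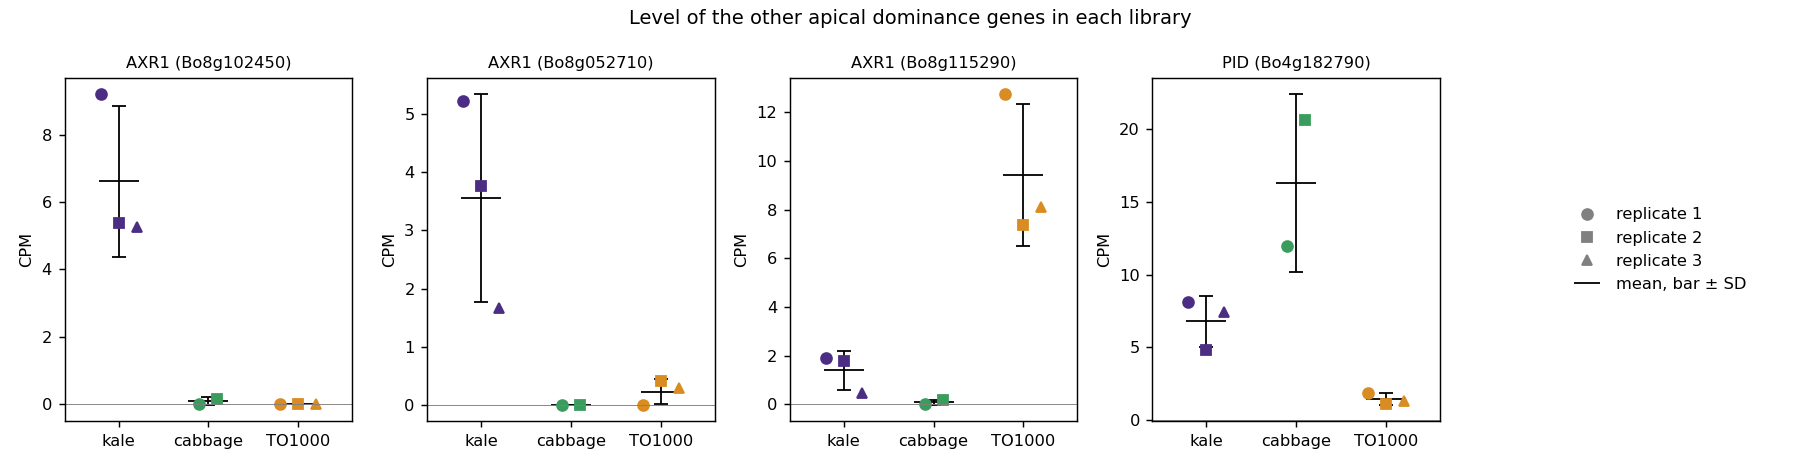
Level in CPM (vertical axes, each with its own scale) of the 3 AXR1 copies and PID in every library of kale, cabbage and TO1000, with the mean as a line and bars for ± 1 SD. Bo8g102450 and Bo8g052710 are near 0 outside kale, Bo8g115290 is highest in TO1000 at 9.41 CPM on average, and PID is highest in cabbage at 16.3 CPM.

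Markers of tissues in the harvested stem tips also differed between the morphotypes. AP1, which marks young flower meristems, had 5.26 to 6.74 CPM in kale, 0 and 0.168 CPM in cabbage and 0 to 0.148 CPM in TO1000, and like the REVOLUTA copies was near 0 outside kale. Other flowering genes of the study were called higher or lower in kale. SPL3, which the study ties to the change from vegetative to reproductive growth, averaged 4.64, 13.5 and 19.9 CPM in kale, cabbage and TO1000. The flowering repressor FLC Bo9g173370 averaged 23.1, 2.36 and 3.31 CPM. Of the FLC and MAF genes of the study, both FLC copies, AGL27/MAF1, AGL69/MAF5 and AGL68/MAF5 were called higher in kale in both comparisons. AGL70/MAF3 was called lower in both. The study saw no flowering of its kale in 24 days, and AP1 alone does not show that flower meristems were present. ANT, a growth regulator of leaf primordia, ran at 7.65 to 13.7 CPM in kale, 18.8 and 22.1 CPM in cabbage and 25.1 to 36.5 CPM in TO1000, and the growth regulating factors GRF3 (4.54 to 5.50, 11.7 to 12.3 and 7.71 to 11.1 CPM in kale, cabbage and TO1000) and GRF4 (2.69 to 2.87, 4.71 to 5.87 and 5.75 to 10.1 CPM) were lowest in kale, as MAX1 was. GRF3 was not called between kale and TO1000 (log2 fold change -0.89), nor was GRF4 between kale and cabbage (-0.96). Of the other leaf development genes of the study, NGA1, both BLH1 copies and BLI were called higher in kale in both comparisons. NGA1 averaged 10.7, 3.94 and 5.13 CPM in kale, cabbage and TO1000. ASL6 was called lower in both, and HAT5 in kale lay between TO1000 and cabbage. NGA1, BLH1, BLI, ASL6 and HAT5 were added after their values were seen. The 12 genes of trichomes, the hair cells of the epidermis, summed to 96.5 to 129.7 CPM in kale, 56.1 and 73.7 CPM in cabbage and 67.6 to 77.1 CPM in TO1000. TRY alone averaged 50.4, 22.4 and 22.3 CPM in kale, cabbage and TO1000, and the study cites it as a proposed negative regulator in other species. EGL3 (5.59, 20.0 and 24.2 CPM) and HDG11 (3.66, 13.2 and 12.8 CPM) were lowest in kale. The sum therefore does not measure the amount of trichome tissue. Of the 9 trichome genes that could be tested, 7 were higher and 2 (EGL3 and HDG11) lower in kale in both comparisons (6.56% and 4.81% of all genes). The study chose these genes too on these libraries. Between cabbage and TO1000 0 were called (26.2% of all genes), where GL1, with 1 read in each group, could not have been. Of the 12, 1 (MYB80) was at 0 in every kale library. The part of these tissues in the levels of the 5 branching genes was not tested.

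Across all 8 libraries the profiles of the members were compared by the root mean square difference of their centred log2 CPM (prior count 2), a description in which genes share libraries and depth. The prior count shrinks the differences of genes with few reads, such as TCP18 and Bo9g130730, so their distances do not reflect the size of their folds. Among the members, TCP18 and REVOLUTA Bo9g130730 were nearest to each other (0.53), and DWARF27 was nearer to Bo9g130730 (0.76) and TCP18 (0.80) than to the other enzyme MAX1 (1.47). Bo7g021280 stood 0.78 from Bo9g130730 and 1.14 from TCP18. MAX1 was between 1.47 and 2.68 from every other member.

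Among 70 other genes named by the study, REVOLUTA Bo7g021280 was most like AXR1 Bo8g102450 (0.28, with 12 of all tested genes closer) and AP1 (0.31, 17 closer). DWARF27 was most like AGL27/MAF1, a MADS box repressor of flowering (0.31, 18 closer), and the IGMT1 copy Bo2g092580, whose product methylates indole glucosinolates (0.35, 42 closer). TCP18 stood nearest to the calmodulin-like gene CML42 Bo3g162280 (0.43, 52 closer) and the myrosinase gene TGG1 Bo2g155840 (0.48, 100 closer), and Bo9g130730 to the flowering repressor FLC Bo9g173370 (0.39, 103 closer) and the trichome regulator MYB106 Bo8g104210 (0.50, 279 closer). This TGG1 copy averaged 81.1 CPM in cabbage and 109 CPM in TO1000, where TCP18 had no reads, so its nearness to TCP18 depends on the prior count. The named genes nearest to MAX1 were GRF3 (0.36) and the gene of the alpha subunit of the chaperonin that binds the RuBisCO large subunit (Bo04491s010, 0.36), with 533 and 565 tested genes closer.

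Of the 50 identifiers within 5 places on either side of the members, 20 passed the count filter and 4 had no reads at all, and 2, 6 and 5 of the 20 were called in kale minus TO1000, kale minus cabbage and cabbage minus TO1000, where 27.7%, 25.7% and 26.2% of all genes were. In the direction of its member, 1 neighbour of MAX1 was lower in kale in both comparisons, and 1 neighbour of REVOLUTA Bo9g130730 was higher in both. The neighbour of MAX1, Bo3g042080, is numbered directly before it and had 6.05, 1.61 and 2.39 CPM in kale, 9.41 and 12.9 CPM in cabbage and 7.08, 11.2 and 6.79 CPM in TO1000, a log2 fold change of -1.24 for kale minus TO1000 and -1.68 for kale minus cabbage (edgeR Benjamini-Hochberg adjusted p = 0.0156 and 0.00456). Every kale library lay below all the others for this gene, as for MAX1. The neighbour of REVOLUTA, Bo9g130680, had 9.07, 6.64 and 10.8 CPM in kale, 2.90 and 2.18 CPM in cabbage and 2.52, 5.05 and 3.84 CPM in TO1000 (adjusted p = 0.00562 for TO1000 and 0.00204 for cabbage by edgeR with Benjamini-Hochberg adjustment). Both were singled out after their values were seen, and 4 further neighbours that were counted only in kale had no more than 2 reads each.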

How the data were processed

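The authors made cDNA from polyadenylated RNA of pools of 8 plants, amplified it by PCR, obtained single-end reads on an Illumina GAIIx, and removed adapters by Cutadapt 2.4. Reads were placed on the genome of TO1000 by 2 passes of STAR, whose unnormalized read counts per gene the authors deposited. The study also describes the cDNA as normalized, which may compress differences between genes. Libraries were grouped by their titles, and a further cabbage library of the study is not analysed here.

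Counts were analysed in R 4.3.3 with edgeR 4.0.16. Genes passing filterByExpr (minimum count 10, minimum total 15) were scaled by TMM and fitted by quasi-likelihood in a single model of the 8 libraries whose only term was morphotype. The 3 pairwise comparisons were tested two-sided, with Benjamini-Hochberg adjustment over their joint table, and calls required an adjusted p under 0.05 and a log2 fold change beyond 1. The procedure was tested on simulated data. Ratios with few reads have exact conditional 95% intervals.

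The members, the list of AXR1 and PID, the markers and the tests were chosen with earlier results of these data known, and the study had chosen the genes on these libraries. Named genes are the members, the other apical dominance genes, the tissue markers, the 2 study genes most like each member and those said to be chosen after their values were seen. SPL3 and the FLC and MAF genes that are not among those most like a member were outside these lists and were added later. Alternatives were DESeq2 1.42.0, RLE factors, other count filters, glmTreat, adjustment within each comparison, 2 morphotypes per fit, a replicate block, thinning to 3016197 reads and leaving out each library. Gene names are those of the study, since 0 of the 5 identifiers matched the RefSeq gene table, and no sequence or position is given. Figures were drawn with matplotlib.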

Additional observations from a re-analysis of the deposited data

How the results depend on the processing

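Apart from the results given here, the members' calls and directions in both kale comparisons held under every alternative that could be fitted. The direction of the DWARF27 to MAX1 ratio held too. Between cabbage and TO1000 no member was called under any alternative. The REVOLUTA values there, -1.71 for Bo7g021280 and -2.47 for Bo9g130730, reached 0 with a library left out. AXR1 and PID were refitted for their calls, while the markers, profile distances and neighbours were not refitted. Testing against a change of 2-fold itself (glmTreat) gave 2 members called for kale minus TO1000 in place of 4, with MAX1 at -1.20 (adjusted p = 0.299) and DWARF27 at 1.52 (adjusted p = 0.166), and DWARF27 at 2.04 for kale minus cabbage (adjusted p = 0.0598). It called 2 of the other apical dominance genes for kale minus cabbage, and 4277, 3360 and 3519 of all genes for kale minus TO1000, kale minus cabbage and cabbage minus TO1000. TCP18 was called in 2 kale comparisons with no count filter and in 2 with a minimum of 5, the setting added after seeing the data.

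Leaving out 1 library at a time, MAX1 ranged from -1.35 to -0.95 for kale minus TO1000 (lowest in size without TO1000 replicate 1), REVOLUTA Bo9g130730 from 6.61 to 6.77 for kale minus cabbage (not called without cabbage replicate 2), the other apical dominance genes called for kale minus cabbage from 2 to 4, and the kale comparisons in which TCP18 was called from 0 to 1. DWARF27 ranged from 1.17 to 1.81 for kale minus TO1000 and from 1.73 to 2.47 for kale minus cabbage, and stayed called. The bound of TCP18 over cabbage lay between 1.24 and 5.70, the lowest without cabbage replicate 2. Thinned to the smallest library, the log2 ratio of DWARF27 to MAX1 for cabbage minus TO1000 was -1.21 in place of -0.91. Bo9g130730 dropped below the count filter without kale replicate 1, in the thinned libraries and at a mean of at least 10 reads, which left 3 members to be called there.

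With each group's mean removed, libraries with the same replicate number had correlations of -0.115 to 0.196 over 7 pairs. The highest, between kale replicate 3 and TO1000 replicate 3, was the highest of all pairs. With 2 or 3 libraries per group these correlations cannot decide whether the numbers pair the samples. A replicate block left 4 members called in each kale comparison and gave 7710, 6728 and 6805 genes called for kale minus TO1000, kale minus cabbage and cabbage minus TO1000, against 7791, 7232 and 7380 without it.

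With 2 cabbage libraries, the shallower at 3016197 reads, depth limits what can be said of cabbage most.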
